A study of Solanum lycopersicum with 24 samples.

Results

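The tomato genome assembly SL4.0 places most genes on 12 chromosomes and collects sequence of unknown position in a chromosome 0, whose ITAG4.0 genes carry identifiers that start with Solyc00g. The genes described here are the Solyc00g genes with a read sum of 10 or more over the 24 deposited count tables. They are 169 of the 513 Solyc00g genes, and 169 of the 24583 genes with that read sum among all 34075 genes. The 344 Solyc00g genes left out had fewer than 10 reads in all. The choice used the sum over all libraries and no difference between groups.

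RNA-seq was performed on excised leaves of 6-week-old Solanum lycopersicum cv. Moneymaker plants that were kept for 1 h at 40°C (heat stress, HS) or for 1 h at 25°C (control), with 3 libraries for each condition of 4 genotypes. WT carried no edit. The rs2z35 and rs2z36 plants were homozygous for a CRISPR-Cas9 insertion or deletion of 1 nucleotide that shifts the reading frame of RS2Z35 or RS2Z36, which encode serine/arginine-rich splicing factors, and rs2z35 36 is the double mutant from a cross of the single mutants. The comparisons ask how leaves respond to HS and whether loss of the splicing factors alters the transcriptome. The replicates are stated to be biological, leaves were pooled for RNA extraction, and rs2z35 36 is described as a single line. Leaf tissue holds several cell types, so that fewer cells of a type and less RNA per cell cannot be told apart.

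Unplaced sequence often contains repeats, allelic fragments and copies of organelle DNA. Plant mitochondrial and plastid genomes encode subunits of the respiratory chain, of photosynthetic complexes and of organelle ribosomes, and pieces of both are found inserted in plant nuclear genomes. In organelles a poly(A) tail usually marks a transcript for decay, whereas in the nuclear and cytosolic pathway it stabilises the mRNA. The libraries were made from polyA-selected RNA without strand information, and whether reads that fit several places were counted is not given in the sources used here. Reads from an organelle genome, from a nuclear copy of it and from near-identical Solyc00g genes therefore cannot be told apart in these counts.

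Descriptions were found for 67 of the 169 genes in the supplementary tables of the study, and the other 102 are given by identifier. From these descriptions, 22 genes were grouped as mitochondrial, 9 as of the plastid, 22 as unknown proteins and 7 as other proteins. A further 7 were ribosomal or ATP synthase proteins whose descriptions name no organelle, and were grouped as of an organelle not named. The grouping is partly an inference, as not every description names an organelle. Solyc00g025290, grouped as mitochondrial, and Solyc00g094550, grouped as other, are both described only as a hypothetical protein. Of the 67 descriptions, 64 came from the part of a table that lists mainly genes with a low adjusted p-value in the WT heat comparison of the same libraries. How many described genes were called in WT is therefore fixed by that choice and is no result.

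Total counts ranged from 18692423 to 22517273 in the 12 control and from 16853134 to 23929283 in the 12 HS libraries. The label genotypes were checked on the edited genes. CPM are counts per 1000000 effective counts of a library, scaled by TMM, with factors that lay in the range of 1.24 to 1.33 for control and of 0.74 to 0.85 for HS. RS2Z35 (Solyc05g054920) was at 193 ± 10.8 CPM (SD, n = 3) in WT control against 32.6 ± 1.16 in rs2z35, and RS2Z36 (Solyc09g005980) was at 57.6 ± 5.67 in WT control against 38.7 ± 5.36 in rs2z36. In rs2z35 36 control they were at 31.3 ± 0.879 and 34.1 ± 0.598 CPM. Under HS, RS2Z35 was at 235 CPM in WT, 46.5 in rs2z35 and 45.1 in rs2z35 36, and RS2Z36 at 115 CPM in WT, 91.6 in rs2z36 and 88.5 in rs2z35 36. HSFA2 (Solyc08g062960), a heat shock factor, ranged from 21.4 to 30.5 CPM in the control libraries and from 2805 to 4420 CPM under HS. The leaf label was checked on chlorophyll a-b binding protein genes and a Rubisco activase gene. In the 24 libraries, Solyc02g070940 was between 830 and 2866 CPM, Solyc01g105050 between 385 and 876 and Solyc02g070970 between 846 and 2571. The Rubisco activase gene Solyc09g011080 was low in control, between 10.5 and 29.8 CPM, and between 1105 and 1579 CPM in HS.

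The Solyc00g genes were expressed at low levels. The median of their mean levels over the 24 libraries was 0.273 CPM, against 8.34 CPM for the genes on the 12 placed chromosomes, and 49 of the 169 reached a mean of 1 CPM. A single gene without a description, Solyc00g500063, was at 3367 CPM and held between 84.7% and 89.9% of all reads of the 169 genes in each library. Together the 169 genes took between 0.387% and 0.521% of all counts of a control library and between 0.276% and 0.390% of an HS library. Between 118 and 150 of them had at least 1 read in a given library.

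After HS, many of these low genes rose while few fell. A gene was called when its absolute log2FC (HS minus control) exceeded 1 with an adjusted p-value below 0.01 in edgeR's quasi-likelihood test over all tested genes. In WT, 117 of the 169 genes had enough reads to be tested, and 49 of them (41.9%) were called higher, against 13.5% of all 22692 genes tested. Only 3 (2.56%) were called lower, against 11.6% of all. The median log2FC was 1.53 for the Solyc00g genes and -0.03 for all genes, and the quartiles of the values ran from 0.06 to 3.70 against -0.60 to 0.59 on the placed chromosomes. With total counts as library size, the median of all genes was -0.79 in place of -0.03, and 40 Solyc00g genes were called higher and 8 lower.

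These counts depend on the minimum of reads, because a gene at the edge of detection in control passes only through its HS reads. With at least 10 reads in the 3 control libraries alone, a condition chosen after seeing the data, 76 Solyc00g genes were left in WT, of which 23 (30.3%) were called higher and 3 lower. The same condition left 21656 genes of the whole genome with 12.3% called higher. The median log2FC then was 0.33 for the Solyc00g genes and -0.06 for all genes. The other 26 calls in WT were for genes with fewer than 10 control reads.

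No placed chromosome had a share of that size. In WT the share of tested genes called higher ran from 11.6% on chromosome 12 to 14.9% on chromosome 3, and the medians of the 12 chromosomes lay between -0.08 and 0.02. Among genes with 10 or more control reads it ran from 10.8% to 13.3%, against 30.3% on chromosome 0. The median of the mean levels on a placed chromosome was between 7.42 and 9.26 CPM, so that these chromosomes also hold far more highly expressed genes than chromosome 0. The part of this difference in level in the share of calls was not tested beyond the count of control reads above.

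**Figure D1:**
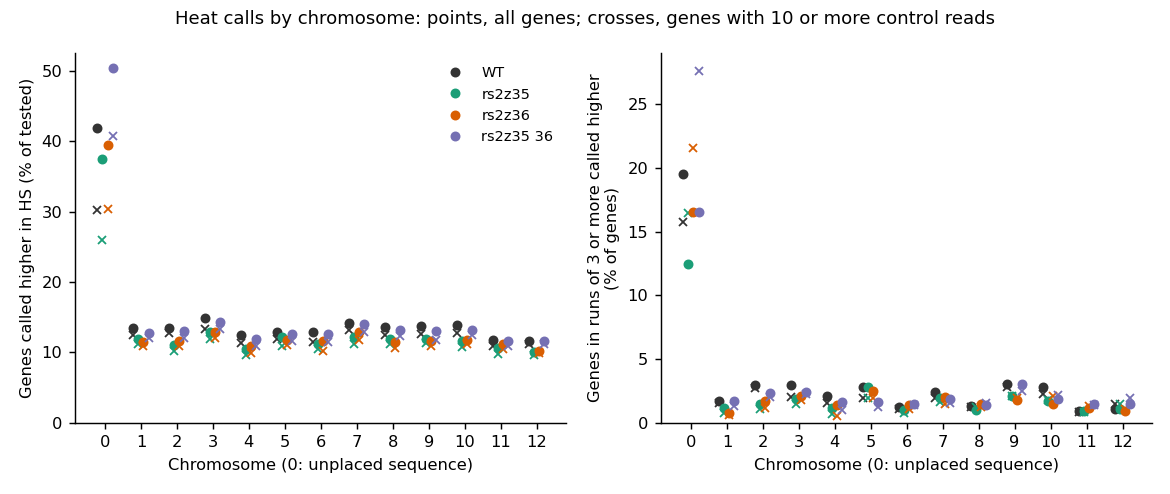
Left, genes called higher in HS in percent of the genes tested, by chromosome (0 is the unplaced sequence) and genotype. Right, genes that lie in runs of 3 or more neighbours called higher, in percent of the genes. Points are all genes (left, tested; right, 10 or more reads in all) and crosses genes with 10 or more control reads. On the left, chromosome 0 stands at 37.5% to 50.4% (crosses 26.0% to 40.8%) and the placed chromosomes at or below 14.9% (crosses 13.3%).

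Many of the called genes were neighbours in the order of identifiers. A run was defined as 3 or more Solyc00g genes that follow each other in the order of their identifiers, among the 169 genes, and are all called higher. WT had 6 runs with 33 of the 49 called genes, or 19.5% of the 169 genes. Genes with fewer than 10 reads lie inside the runs and were skipped, and with every Solyc00g gene kept in the order WT had 3 runs with 20 genes. On the placed chromosomes, runs of this kind held between 0.938% and 3.00% of the genes in WT, and the longest had 7 genes, Solyc06g076510 to Solyc06g076580. Between 1 and 9 genes of each WT run had 10 or more control reads, and the others passed through their HS reads. Among genes with 10 or more control reads, an alternative chosen after seeing the data, WT had 1 run of 12 genes on chromosome 0, or 15.8% of 76 genes, against 0.850% to 2.81% of the genes of a placed chromosome. This run went from Solyc00g014850 to Solyc00g094540 and joined genes of the first 3 runs, as genes between them were skipped. The first run alone kept 9 such genes. Chromosome 0 joins scaffolds whose order is unknown, so that neighbours in this order need not be neighbours in the plant genome. Only 3 Solyc00g genes were called lower in WT, and 2, 1 and 2 in rs2z35, rs2z36 and rs2z35 36. A run of genes called lower was thus not possible in the mutants, and none was found in WT.

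**Figure D2:**
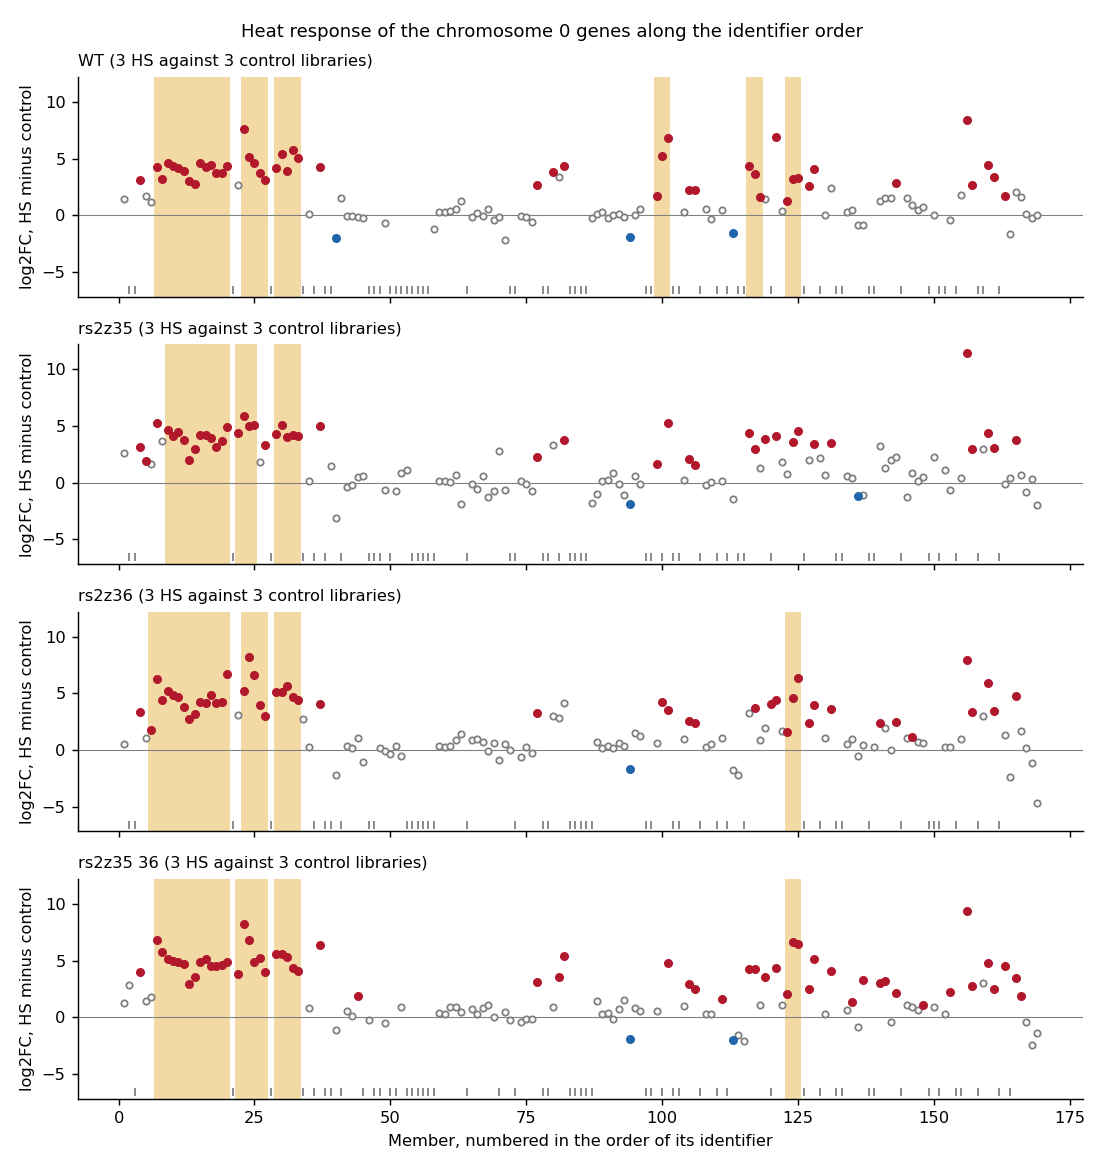
The log2FC (HS minus control) of each tested Solyc00g gene against its number in the order of identifiers, for each genotype. Red points are called higher, blue lower and open points are not called, ticks at the bottom mark genes with too few reads to be tested, and shading marks runs. The first 3 shaded stretches of WT, numbers 7 to 33, return in all 4 genotypes with slightly different ends.

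The longest run in WT had 14 genes, from Solyc00g014850 to Solyc00g021650. Solyc00g019950, a subunit 9 of mitochondrial complex I (NADH dehydrogenase), was at 0.227, 0.214 and 0.162 CPM in the WT control libraries and at 6.04, 3.55 and 5.21 CPM in the WT HS libraries. All HS libraries lay far above all control libraries, with a log2FC of 4.58 ± 0.30 (SE; edgeR quasi-likelihood, adjusted p = 1.44e-06). Its neighbour Solyc00g019980, described as ribosomal protein L2 of the chloroplast, had the smallest adjusted p of all Solyc00g genes in WT. It was at 0.492, 0.571 and 0.649 CPM in control and at 12, 8.88 and 11 CPM in HS, again without overlap, for a log2FC of 4.21 ± 0.19 (adjusted p = 1.05e-07).

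Solyc00g014850, the mitochondrial open reading frame orf86, opened the run and rose from 0.189, 0.250 and 0.122 CPM to 4.21, 2.77 and 4.52 CPM. Solyc00g020040 encodes a cytochrome c biogenesis B protein, a membrane component of the mitochondrial pathway that attaches haem to cytochrome c. It had 0, 0.107 and 0.0811 CPM in control and 1.49, 1.07 and 1.85 CPM in HS (log2FC 4.42 ± 0.56, adjusted p = 0.000108). The unknown proteins of the run, Solyc00g019970 (log2FC 4.34) and Solyc00g020020 (4.61) among them, rose too. Over the whole run the log2FC ranged from 2.79 (Solyc00g020010) to 4.61, with a median of 4.24.

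The remaining members of this run were called as well. The unknown proteins Solyc00g019990, Solyc00g020000 and Solyc00g020030 had log2FC of 3.88, 3.06 and 4.27, and Solyc00g021650 had 4.36. Solyc00g021630, a subunit 6 of complex I, and Solyc00g021640, a ribosomal protein S4, were not covered by the rule for named genes and are given as the other described members: Solyc00g021640 was at 0.870, 0.892 and 1.18 CPM in control and at 14.7, 10.6 and 14.7 CPM in HS. The call for Solyc00g014860 (log2FC 3.18, adjusted p = 0.00645) rested on 2 control and 12 HS reads, a ratio of 10.9 with an exact 95% counting interval of 2.43 to 101. It was lost with DESeq2 (adjusted p = 0.0224), with total counts (0.0192) and with the replicate block (0.0150), and without it the run starts at Solyc00g019950. When any 1 of the 6 WT libraries was left out, 13 of the 14 genes were still called, Solyc00g014860 being the one lost, and the longest run had 12 genes.

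Summed over the 14 genes, the WT control libraries held 4.01, 3.82 and 4.70 CPM and the WT HS libraries 73.3, 51.8 and 67.3 CPM. The sum was 15.3-fold higher in HS. In rs2z35 it was 13.7-fold, in rs2z36 19.0-fold and in rs2z35 36 23.6-fold higher, and in none of the 4 genotypes did the HS and control libraries overlap. A sum over chosen genes is given without a test. The 2792 reads of this run in WT HS compare with 329 in WT control.

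A second run, Solyc00g023570 to Solyc00g025290, held 5 genes. Solyc00g023590 is described as cytochrome f, the c-type cytochrome of the photosynthetic cytochrome b6f complex, and rose from 0.189, 0.107 and 0.0406 CPM to 3.8, 1.92 and 3.22 CPM (log2FC 4.65 ± 0.44, adjusted p = 1.64e-05). The unknown protein Solyc00g023570 had 0 reads in all 3 WT control libraries and 1.22, 0.994 and 1.30 CPM in WT HS, so that it was at least 30.9-fold higher, taking 3 counts over the 3 control libraries as the limit. The run as a whole had 28 reads in control and 305 in HS, and in the fits without 1 library between 3 and 5 of its genes were called. Only 1 of its genes had 10 or more control reads.

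The third run joined Solyc00g094520 to Solyc00g094550 with Solyc00g118690 and had 5 genes with log2FC between 3.95 and 5.75. Both Solyc00g094530 and Solyc00g118690 bear the description NADH-ubiquinone oxidoreductase chain 1, a membrane subunit of complex I. Solyc00g094530 went from 0.151, 0.107 and 0.0406 CPM to 4.34, 3.41 and 5.41 CPM (log2FC 5.37 ± 0.36, adjusted p = 1.59e-06). Solyc00g118690 went from 0.151, 0 and 0.162 CPM to 4.82, 2.49 and 3.08 CPM (log2FC 5.02 ± 0.53, adjusted p = 3.07e-05). As both have the same description, how their reads were divided is uncertain.

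The last 3 runs of WT had 3 genes each. Solyc00g500164 to Solyc00g500167 ended with a cytochrome c biogenesis FC protein (Solyc00g500167), which had 0 reads in WT control against 0.882, 0.426 and 0.685 CPM in WT HS and was thus at least 17.5-fold higher. Solyc00g500224 to Solyc00g500234 held another gene of that description and a ribosomal protein L2 (Solyc00g500228), which rose from 0.605, 0.392 and 0.771 to 8.61, 5.18 and 8.63 CPM (log2FC 3.67 ± 0.29, adjusted p = 4.14e-06). Solyc00g500245 to Solyc00g500254 held ribosomal proteins S3 and L20 and between them the cytochrome c oxidase subunit 1 (Solyc00g500250), the catalytic subunit of respiratory complex IV, with a log2FC of 3.19 ± 0.64. These 3 examples were chosen after their values were seen. Without 1 library, between 0 and 2 of the genes of the last run were called. With 1 library left out, the number of runs in WT lay between 2 and 5, and the number of genes in them between 15 and 28. Leaving out WT HS replicate 1 gave 15 genes in 2 runs, WT HS replicate 3 gave 17 in 2 runs, and WT HS replicate 2, WT control replicate 1 or WT control replicate 2 gave 20 in 3 runs. With total counts as library size, WT had 3 runs with 20 genes.

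The largest increase of all was outside the runs. Solyc00g500338, an unknown protein, was at 0.0756, 0.0357 and 0 CPM in WT control and at 11.1, 19.2 and 13.5 CPM in WT HS, with a log2FC of 8.38 ± 0.43 (adjusted p = 2.49e-07). The control libraries held 3 reads in all and the HS libraries 631, a ratio of 383 with an exact 95% counting interval of 131 to 1863, which covers counting error only. In rs2z35 control it had 0 reads, and its HS mean of 16.2 CPM was at least 414-fold higher. The HS means of rs2z36 and rs2z35 36 were 20.6 and 21.7 CPM.

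Other mitochondrial genes outside the runs rose as well. Cytochrome b of complex III, Solyc00g500312, went from 0.0756, 0.143 and 0.122 CPM in WT control to 1.15, 0.497 and 0.890 CPM in WT HS (log2FC 2.84 ± 0.49, adjusted p = 0.000809). A further cytochrome c biogenesis FC gene, Solyc00g500241, had 0 reads in WT control and 1.09, 0.639 and 0.479 CPM in WT HS and was at least 19.4-fold higher. Outside both organelle groups, the transmembrane protein Solyc00g500257 rose from 0.265, 0.0714 and 0.203 CPM to 3.8, 2.63 and 2.74 CPM (log2FC 4.07 ± 0.37, adjusted p = 1.19e-05), and the zinc finger protein Solyc00g014800 had a log2FC of 1.67 ± 0.49 and was not called (adjusted p = 0.0147). It was called without WT HS replicate 1. These 4 genes too were chosen after their values were seen.

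Described as subunit 7 of complex I, 3 genes with neighbouring identifiers did not move alike. Solyc00g500184 rose from 1.51, 1.39 and 2.15 to 9.50, 6.25 and 7.40 CPM in WT (log2FC 2.21 ± 0.22) and Solyc00g500185 from 1.06, 1.18 and 1.34 to 4.82, 6.11 and 5.75 CPM (2.23 ± 0.19). Solyc00g500183, the most abundant of the 3 genes, was at 12.9, 11.3 and 14.3 CPM in control and at 17.8, 14.6 and 15.5 CPM in HS. Its log2FC of 0.32 ± 0.12 was not called and became -0.44 with total counts. These 3 genes were chosen after their values were seen, and the difference between them was not tested.

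Decreases were few, and WT had only 3 called ones. Solyc00g500145, a maturase K that in plastids takes part in intron splicing, fell from 2.42, 2.18 and 3.65 CPM to 0.610, 0.426 and 1.10 CPM (log2FC -1.92 ± 0.35, edgeR quasi-likelihood, adjusted p = 0.00112). It was called lower in all 4 genotypes, with log2FC of -1.91 in rs2z35, -1.69 in rs2z36 and -1.90 in rs2z35 36. The other decreases in WT were of 2 genes described as auxin-responsive GH3 family proteins, enzymes that conjugate auxin to amino acids. Solyc00g500216 fell from 1.51, 1.11 and 1.09 to 0.543, 0.284 and 0.411 CPM (log2FC -1.56 ± 0.34, adjusted p = 0.00311), and Solyc00g254910, outside the rule for named genes, had a log2FC of -2.02 ± 0.47 (adjusted p = 0.00461). Neither GH3 call held in each fit without 1 library: Solyc00g500216 was lost without WT HS replicate 2 or 3 or WT control replicate 1, with adjusted p between 0.0127 and 0.0149. Solyc00g254910 was lost in 4 of these 6 fits (all but those without WT HS replicate 1 or WT control replicate 3), with DESeq2 (adjusted p = 0.0228) and with the replicate block (0.0132).

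Genes grouped as of the plastid did not share a direction in WT. Of the 9 genes, 4 were called higher and 1 lower, counts that follow from how the descriptions were found. Solyc00g181250, the CP43 protein of photosystem II, had a log2FC of 4.22 ± 0.84 (edgeR quasi-likelihood, adjusted p = 0.00181). This call rested on 2 control and 25 HS reads in WT, and the gene was called higher in all 4 genotypes. Besides the fall of maturase K and the rise of the ribosomal protein L2 and cytochrome f genes, Solyc00g500042, described as a TIC protein (the protein import machinery of the inner envelope of chloroplasts), was at 26.6, 23.4 and 30.8 CPM in control and at 13.8, 15.3 and 19.8 CPM in HS. Its log2FC of -0.72 ± 0.15 missed the threshold of 1, which it passed with total counts (-1.48). The ATP synthase subunits b and alpha, Solyc00g500321 and Solyc00g500323, had log2FC of 0.86 and 0.70 and were not called. Without WT control replicate 1, Solyc00g500321 was called (1.03), and the value of Solyc00g500323 became -0.064 with total counts. Solyc00g500329, described as the photosystem II protein D1, had a log2FC of -0.45 ± 0.53 (adjusted p = 0.48), which turned to 0.18 without WT control replicate 1. The summed level of the 9 genes was 37.2 ± 3.93 CPM (SD, n = 3) in WT without and 42.2 ± 5.55 CPM with HS, where the groups overlapped, and most of the control sum came from Solyc00g500042.

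The mutants share no library with WT in their heat comparisons, so that these give separate measurements of the same genes. In rs2z35, 45 of 120 tested genes (37.5%) were called higher, against 11.7% of all genes, and 2 lower, against 11.1%. In rs2z36, 49 of 124 (39.5%) were called higher and 1 lower, against 11.8% and 10.9% of all genes. In rs2z35 36, 59 of 117 (50.4%) were called higher and 2 lower, against 13.1% and 12% of all genes. The median log2FC of the Solyc00g genes was 1.41, 1.25 and 1.78 in the same order, and that of all genes was between -0.03 and -0.04. Among genes with 10 or more reads in the control libraries, 26.0%, 30.4% and 40.8% of the Solyc00g genes were called higher, against 10.8%, 10.9% and 12.1% of all genes, and the medians were 0.25, 0.72 and 1.01. With filterByExpr of edgeR, which left 56 Solyc00g genes in rs2z35, the medians were 0.81, 2.36 and 2.91. A gene can pass this filter through its HS libraries alone, so that these medians do not remove the dependence on HS reads.

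Of the 49 genes called higher in WT, 40 were also called in rs2z35 (81.6% of the WT and 88.9% of the rs2z35 genes), 43 in rs2z36 (87.8% of either) and 45 in rs2z35 36 (91.8% of the WT and 76.3% of the rs2z35 36 genes). In all 4 genotypes 37 genes were called higher, which was 55.2% of the 67 called in at least 1 genotype. For all genes of the genome this share was 52.8%. The runs of the mutants held 21 genes in rs2z35, 28 in rs2z36 and 28 in rs2z35 36, and 20 genes lay in a run in all 4 genotypes. The longest runs had 12 genes in rs2z35 (from Solyc00g019950), 15 in rs2z36 (from Solyc00g014810) and 14 in rs2z35 36 (from Solyc00g014850), and all ended at Solyc00g021650 as in WT. Among genes with 10 or more control reads the longest runs had 12, 14 and 13 genes, against at most 7 on a placed chromosome. These runs went on to Solyc00g118690 and joined genes of separate runs, as genes between them were skipped. The runs ending at Solyc00g021650 alone kept 8, 10 and 9 such genes.

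The descriptions favour genes that responded to HS in WT, so that their counts in the mutants repeat a choice made on the same response and are given as a description only. All 22 mitochondrial genes had a positive log2FC in rs2z36 and rs2z35 36, and all 21 tested in rs2z35. Of these genes, 17 were called higher in rs2z35, 18 in rs2z36 and 20 in rs2z35 36, with median log2FC of 3.55, 3.49 and 4.05. Of the 9 plastid genes, 4, 5 and 6 were called higher and 1 lower in each mutant. Of the 57, 58 and 53 tested genes without a description, 1, 3 and 7 were called higher in rs2z35, rs2z36 and rs2z35 36. Of all genes, 11.7%, 11.8% and 13.1% were called higher. The other tested genes without a description were not called, and the rest of these 102 genes had too few reads to be tested. That no gene without a description was called in WT follows from how the descriptions were found. In rs2z35 the called gene without a description was Solyc00g500238, and in rs2z36 these were Solyc00g014810, Solyc00g500240 and Solyc00g500302, named here after their values were seen.

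**Figure D3:**
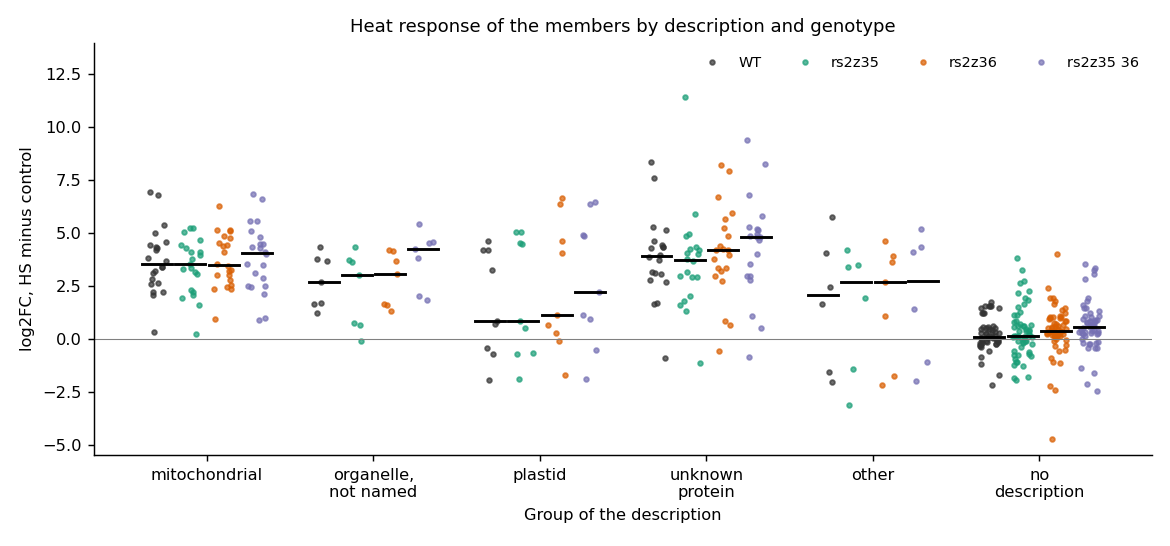
The log2FC (HS minus control) of each tested Solyc00g gene by its description and genotype, with black lines at the medians. All mitochondrial points lie above 0 in each genotype, the plastid points spread from -1.92 to 6.65, and the medians of the genes without a description lie between 0.10 and 0.58.

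None of the 5 most abundant genes was called in WT. In WT, Solyc00g500063 was at 2808, 2836 and 3004 CPM in control and at 3370, 3154 and 3760 CPM in HS. The HS libraries lay above the control libraries, but the log2FC of 0.26 ± 0.10 (adjusted p = 0.0408) was not called, and it became -0.50 with total counts. Solyc00g500140 (log2FC 0.31) and Solyc00g500062 (0.27) also turned negative with total counts (-0.45 and -0.49), so that no direction can be given for these 3 genes. Solyc00g500023 had a log2FC of -0.08 ± 0.11 in WT (adjusted p = 0.57), which was 0.039 without WT control replicate 3. The unknown protein Solyc00g500294 went from 31.2, 29.0 and 39.7 CPM in WT control to 15.1, 18.2 and 20.4 CPM in WT HS without overlap (log2FC -0.89 ± 0.15), short of the threshold, which it passed with total counts (-1.65), and it was called lower in rs2z35 (-1.16).

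Without HS, the mutants did not differ from WT in these genes beyond the threshold. In control, 0 of 122 tested Solyc00g genes were called in rs2z35, rs2z36 or rs2z35 36 by edgeR, where 0.051%, 0.187% and 0.174% of all 23532 genes were called, and DESeq2 also gave 0 in each. At an unadjusted p below 0.05 there were 6, 15 and 19 genes (4.92%, 12.3% and 15.6%), against 10.5%, 14.1% and 17% of all genes. DESeq2 gave no adjusted p for 55, 44 and 77 of the 122 genes. The median log2FC against WT was 0.04, 0.15 and 0.05, and ranged from -0.040 to 0.082, from 0.044 to 0.30 and from -0.062 to 0.16 without 1 library. Each mutant is set against one set of 3 WT libraries per condition, so that the values of the mutants are not independent of each other.

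After HS, the Solyc00g genes of rs2z36 and rs2z35 36 had mostly positive log2FC against WT, and those of rs2z35 did not. The median log2FC against WT HS was -0.05 in rs2z35, 0.48 in rs2z36 and 0.52 in rs2z35 36, where the median of all genes was at most 0.01. The median log2 CPM of the same genes varied between libraries of a group. For a difference between a mutant and a WT library, the SD of these medians was 0.38, 0.42 and 0.53. Of the 142 tested genes, 64, 121 and 118 had a positive log2FC (45.1%, 85.2% and 83.1%), against 52.6%, 49.9% and 50% of all genes. Genes measured in the same libraries are not independent, so that these counts are a description only. Still, 0 genes were called by edgeR in each mutant, where 0.0302%, 0.142% and 0.19% of all 23162 genes were called. At an unadjusted p below 0.05 there were 5, 36 and 39 genes (3.52%, 25.4% and 27.5%), against 8.56%, 15.2% and 14.2% of all genes.

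DESeq2 called 0, 0 and 2 genes in these HS comparisons and gave no adjusted p for 94, 77 and 65 of the 142 genes. The 2 genes in rs2z35 36 were Solyc00g500257, a transmembrane protein (log2FC 1.27, DESeq2 adjusted p = 0.0025), and Solyc00g500329 (1.96, DESeq2 adjusted p = 0.0089). In edgeR the smallest adjusted p was 0.0356, also for Solyc00g500257. Leaving out 1 library in turn moved the median of rs2z36 between 0.26 and 0.65 and that of rs2z35 36 between 0.39 and 0.70. The threshold asks for a doubling, and no gene can be said to be equal to WT from a missed call.

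By description, the values after HS were as follows. Of the 22 mitochondrial genes, 7 had a positive log2FC against WT HS in rs2z35, 19 in rs2z36 and 20 in rs2z35 36, with medians of -0.14, 0.52 and 0.66. Of the 9 plastid genes, 6, 9 and 9 were positive, with medians of 0.10, 0.75 and 0.56. Of the 75 tested genes without a description, 40, 63 and 58 were positive, with medians of 0.01, 0.36 and 0.32. These genes lack a description mainly because they were absent from a list chosen on the heat comparison of WT. That choice used the same WT HS libraries, so that this group is not free of it. The 22 unknown proteins had 4, 20 and 19 positive values, the 7 genes of an organelle not named 3, 5 and 7, and the 7 other proteins 4, 5 and 5. In control, 36, 44 and 34 of the 71 tested genes without a description were positive.

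**Figure D4:**
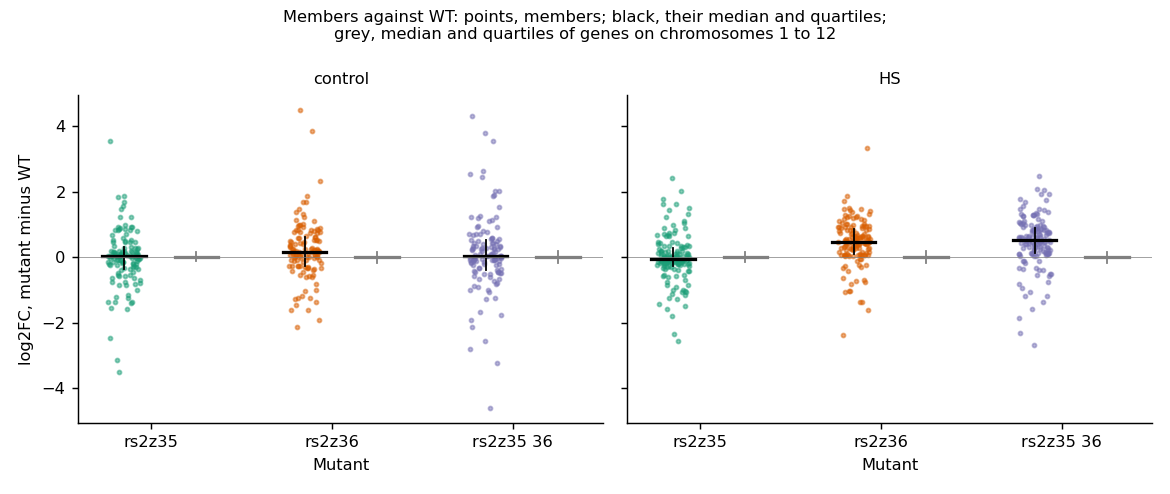
The log2FC (mutant minus WT) of each tested Solyc00g gene in control (left) and HS (right), with the median and quartiles of these genes in black and those of the genes on chromosomes 1 to 12 in grey. In HS the black medians of rs2z36 and rs2z35 36 stand at 0.48 and 0.52, and the grey medians near 0.

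The HS libraries of a group also differed from each other in the genes of the runs. For the 14 genes of the longest run, the HS libraries held 44.5, 72.0 and 52.4 CPM in rs2z35, 79.9, 67.0 and 124 CPM in rs2z36, and 115, 115 and 66.3 CPM in rs2z35 36. Replicate 3 of rs2z36 was the highest of its group and replicate 3 of rs2z35 36 the lowest in each of the 3 longest runs of WT, and the highest library exceeded the lowest by 1.42-fold in WT, 1.62-fold in rs2z35, 1.85-fold in rs2z36 and 1.74-fold in rs2z35 36 for the first run. The mutant and WT HS libraries overlapped for each of these 3 sums. The TMM factors of these 2 replicates moved against the sums. In rs2z36 HS replicate 3, with the highest sum, the factor was 0.737 against 0.776 and 0.826 in replicates 1 and 2. In rs2z35 36 HS replicate 3, with the lowest sum, it was 0.830 against 0.748 and 0.754 in replicates 1 and 2. In percent of all counts, which uses no TMM factor, the first run held 0.00620%, 0.00554% and 0.00911% in rs2z36 HS replicates 1 to 3. In rs2z35 36 HS these shares were 0.00858%, 0.00870% and 0.00550%. The part of the TMM factors in the differences between libraries was not tested.

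**Figure D5:**
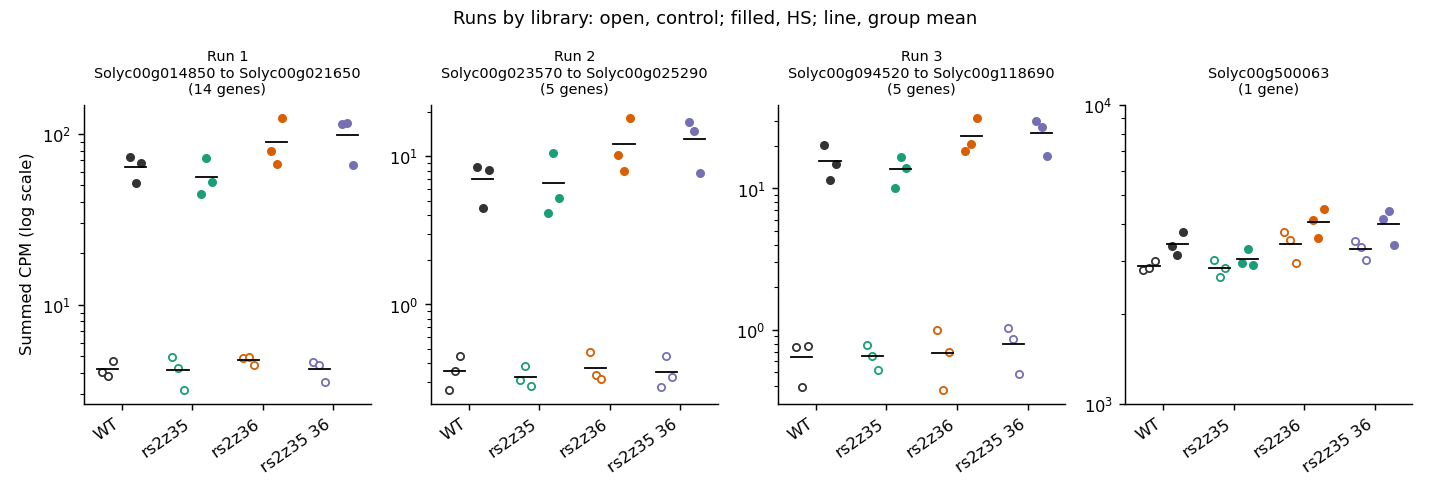
Summed CPM (log scale) of the 3 longest runs of WT and of Solyc00g500063 in each library, open for control and filled for HS, with a line at each group mean. The HS means of each run stand at least 13.7-fold above the control means in all 4 genotypes, and Solyc00g500063 stays between 2651 and 4489 CPM.

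The test of whether the heat response itself differs between a mutant and WT, fitted on all 24 libraries, called 0 of the 169 genes in each mutant, where 0.0122%, 0.106% and 0.0407% of all 24583 genes were called in rs2z35, rs2z36 and rs2z35 36. DESeq2 gave 0 as well. At an unadjusted p below 0.05 there were 4, 10 and 16 genes, or 2.37%, 5.92% and 9.47%, against 7.40%, 8.75% and 8.55% of all genes. The median difference in log2FC was -0.11, 0.17 and 0.37. Without 1 library it ranged from -0.28 to 0.026, from -0.047 to 0.39 and from 0.16 to 0.56, so that the first 2 give no direction. DESeq2 gave no adjusted p for 21, 86 and 128 of the 169 genes.

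The genes with the smallest adjusted p in these tests are given with their values, though none passed. For rs2z35 36, Solyc00g500296, without a description, was at 1.63, 1.62 and 0.733 CPM in control and at 16.1, 16.1 and 7.97 CPM in HS, and was called higher there (log2FC 3.33 ± 0.32). In WT it was at 5.71, 5.6 and 1.5 CPM in control and at 2.71, 2.2 and 2.26 CPM in HS, where the groups overlapped, though without WT control replicate 3 it was called lower there (log2FC -1.23, edgeR adjusted p = 0.000226). The difference between both responses was 4.16 ± 1.12 on the log2 scale, with an adjusted p of 0.195 by edgeR. This gene varied between replicates elsewhere too, from 0.542 to 8.09 CPM in rs2z35 control. Next in rs2z35 36 was orf86, Solyc00g014850, whose rise was larger than in WT by 2.56 ± 0.79 on the log2 scale (edgeR adjusted p = 0.289).

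For rs2z36, the smallest adjusted p belonged to Solyc00g500069 (difference 1.02 ± 0.30, edgeR adjusted p = 0.296) and the TIC gene Solyc00g500042 (0.61 ± 0.21, edgeR adjusted p = 0.427). The TIC gene was at 24.8, 26.4 and 29.9 CPM in rs2z36 HS, above the 13.8, 15.3 and 19.8 CPM of WT HS. For rs2z35, they were Solyc00g500067 (-3.09 ± 1.11), a gene with at most 0.289 CPM in any group mean, and the unknown protein Solyc00g020000 (-1.05 ± 0.39), with edgeR adjusted p of 0.52 and 0.547.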

How the data were processed

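For each of the 24 libraries, the authors deposited counts of reads per gene. Per the study's methods and labels, paired-end reads of polyA-selected, non-directional libraries were mapped with STAR to SL4.0 with the ITAG4.0 annotation and counted with HTSeq 0.9.1, and counts of the HS libraries were adjusted with ComBat-Seq, whose batch variable is not named. For control libraries no adjustment is mentioned, so that this adjustment and HS cannot be told apart. Groups came from the labels.

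From the deposited counts, edgeR 4.0.16 (R 4.3.3) was run with TMM scaling, a minimum of 10 reads summed over a fit's libraries, the two-sided quasi-likelihood test and p-values adjusted by Benjamini-Hochberg across all genes of a fit. Heat was fitted on the 6 libraries of a genotype, mutants against WT on the 12 libraries of a condition and interactions on all 24. Alternatives were DESeq2 1.42.0, also with apeglm 1.24.0, other scalings, filters and samples, a replicate block and leaving out single libraries. The steps were tested on simulated data in which only genes with a mean of at least 1 CPM were changed. Recovery at lower levels, where 120 of the 169 Solyc00g genes lie, was not tested. Each pair of replicates differed by more than sampling noise (chi-square per degree of freedom of 4.75 to 28.4).

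Named genes were the 10 largest increases and up to 5 largest decreases in WT with a mean of at least 1 CPM and no overlap, the 5 highest means, the first 10 genes of the longest run, called genes of mutant comparisons and the 2 smallest adjusted p of each interaction. The genes, lists and rules were chosen with earlier results of these data known. No sequences are shown, since no genome of this build was used here.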

Additional observations from a re-analysis of the deposited data

How the results depend on the processing

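Counting error limits most of these genes: 41 of the 117 tested in WT had fewer than 10 reads in the control libraries. Of the 120 alternative counts of heat calls, 98 were within 1.5 times the main count. Total counts as library size gave 8, 8, 3 and 4 genes called lower (WT, rs2z35, rs2z36, rs2z35 36) and medians of 0.81, 0.75, 0.57 and 1.05. filterByExpr left fewer genes and gave 29 and 27 called higher in WT and rs2z35, and medians of 1.07, 0.81, 2.36 and 2.91. With 10 control reads required, an alternative added after seeing the data, 23, 19, 24 and 31 genes were called higher, with medians of 0.33, 0.25, 0.72 and 1.01, and runs were 1 with 12 genes in WT, 1 with 12 in rs2z35 and 2 with 17 in rs2z36. Shrinkage with apeglm gave medians of 0.83 in WT and 0.78 in rs2z35. In rs2z35 36 heat 1 gene was called lower with DESeq2, with apeglm and with the replicate block, and all 24 libraries in a single fit gave 2 lower in rs2z36. For rs2z35 36 against WT in HS, DESeq2 called 2 genes and the fit on 6 libraries 1, Solyc00g500296.

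Without 1 library, the genes called lower ranged from 1 to 4 in WT and from 1 to 2 in rs2z35 36, and WT had 2 to 5 runs with 15 to 28 genes. Ordered over all Solyc00g rows, WT had 3 runs with 20 genes; with a minimum of 5 genes it had 3 runs, and with total counts 3 runs with 20 genes. With an adjusted p below 0.05, rs2z35 had 5 runs with 33 genes and rs2z36 7 runs. Leaving the 10 largest genes out of the denominator raised the mean share of counts to 0.436% in WT control, 0.349% in WT HS, 0.330% in rs2z35 HS, 0.421% in rs2z36 HS and 0.412% in rs2z35 36 HS. Without the 5 most abundant members it was 0.0158%, 0.0161%, 0.0169% and 0.0162% in control (WT, rs2z35, rs2z36, rs2z35 36) and 0.0206%, 0.0205%, 0.0298% and 0.0326% in HS. In WT heat, log2FC turned to -0.50 (Solyc00g500063), -0.45 (Solyc00g500140), -0.49 (Solyc00g500062), -0.44 (Solyc00g500183) and -0.064 (Solyc00g500323) with total counts. Without 1 WT library it ranged from -0.145 to 0.039 for Solyc00g500023 (positive without control replicate 3) and from -0.843 to 0.183 for Solyc00g500329 (positive without control replicate 1). Where no cause is visible in the construction of an alternative, the cause was not tested.

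Whether replicate numbers pair the libraries is not known. Over 24583 genes the correlation of deviations between same-numbered HS and control libraries was between -0.153 and 0.111 in the 12 pairs. The HS counts were batch adjusted, which can remove an effect shared with control, so that these values cannot exclude a pairing. For same-numbered mutant and WT libraries it ran from -0.239 to 0.339 in the control and from -0.343 to -0.080 in the HS condition. These were not set against pairs with unlike numbers. With the replicate block, 44, 37, 42 and 56 genes were called higher (WT, rs2z35, rs2z36, rs2z35 36), and 0 in each comparison of mutants with WT and in each interaction.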
